A study of Homo sapiens with 12 samples.

Results

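The genes of glycerol transport and metabolism described here were AQP3, AQP7, GK, GPD1, GPD1L, GPD2 and PCK2, taken by name and found through their Entrez gene numbers in a table of read counts. They are 7 of the 23705 genes in that table, and 6 of them had enough counts to be tested among 13522 genes in all, while AQP7 did not. The counts came from A375, an established human metastatic melanoma line grown in DMEM with 10% FBS and used at passages 30 to 32. Cells of 4 groups were harvested after 24 h: those given the DMSO vehicle, 5 μM rosiglitazone (RGZ), 2 μM T0070907, or 5 μM RGZ and 2 μM T0070907 at once, here called the combination. RGZ activates the nuclear receptor PPARγ and T0070907 is an antagonist of that receptor, added to separate effects of RGZ through the receptor from its other effects. Each group held 3 libraries, 1 from each of 3 independent experiments, and the technical replicates of an experiment had been pooled as RNA, so all values describe the spread between experiments in a single cell line.

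Glycerol crosses cell membranes through aquaglyceroporins, the aquaporins whose pore also passes small uncharged solutes. Glycerol kinase then phosphorylates it to glycerol 3-phosphate, the backbone of triglycerides and phospholipids, and glycerol 3-phosphate dehydrogenases interconvert this product and dihydroxyacetone phosphate of glycolysis, in the cytosol with NADH and at the inner mitochondrial membrane with FAD. Phosphoenolpyruvate carboxykinase feeds carbon from the citric acid cycle into the same triose phosphates, a route called glyceroneogenesis, and in fat cells several genes of this pathway are known targets of PPARγ.

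Total counts were 8319455 to 8687191 in the vehicle libraries, 9001174 to 10096418 with RGZ, 8524144 to 11375227 with T0070907 and 8426908 to 9471903 with the combination. Levels are given in CPM, the count of a gene relative to its library's total after scaling by edgeR's TMM method. The detection floor was set at 3 counts, which amounts to 0.258 CPM in the deepest library and 0.371 CPM in the combination library of experiment 1, and floors and counting intervals cover counting error only. Of 9 genes of the melanocyte lineage 5 were tested, and the most abundant, SOX10, stood at 311 CPM in the vehicle group. MITF, PAX3 and S100B were also detected, whereas the pigment genes TYR and DCT had 0 and at most 1 count in every library. Of 7 adipocyte markers 4 stayed at or under the floor in all 12 libraries, with ADIPOQ and CIDEA at 0. CIDEC, another of the 7, reached 31 counts in the RGZ library of experiment 2. FABP4, a fatty acid binding protein of adipocytes that is listed here among the PPAR targets, stood at 167 to 401 CPM with RGZ and at no more than 0.119 CPM with vehicle. The melanoma label thus rests on SOX10, MITF, PAX3 and S100B and not on the pigment genes: besides TYR and DCT, MLANA and TYRP1 were at or under the floor in 10 and 7 of the 12 libraries and PMEL had 3 to 13 counts.

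In the cells treated with RGZ, AQP3 was the member whose RNA differed from vehicle: it rose 3.27-fold, from 5.88 ± 1.55 to 19.2 ± 4.75 CPM (mean ± SD, n = 3 libraries each). With T0070907 added to RGZ it fell back to 7.27 ± 2.64 CPM. The other 5 tested members were not called in any of the 6 comparisons, and AQP7 stayed at or under the floor throughout. A gene is called here when its p-value from edgeR's quasi-likelihood test, adjusted over all 13522 genes by the Benjamini-Hochberg method, is under 0.05. In bulk RNA, a change in the share of cells that express a gene and a change in RNA per cell cannot be told apart.

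For RGZ against vehicle 1 of the 6 tested members was called, in a comparison that called 1.24% of all tested genes (0.947% higher and 0.288% lower). The 6 members had a median log2 fold change of -0.03, against -0.01 over all tested genes. At an unadjusted p under 0.05 stood 1421 of all tested genes, and 2982 with the experiment as a block in the model. With that block, again 1 member was called while the share of all genes rose to 9.30% (4.95% higher and 4.35% lower). Between the combination and RGZ alone 1 member was called, beside 1.24% of all genes (0.311% higher and 0.924% lower), or 1 beside 11.4% (5.55% higher and 5.88% lower) with the block. The median of the members was -0.01 there, against 0.01 over all tested genes. For T0070907 against vehicle edgeR called 0 members, beside 0.00740% of all genes (0.910% with the block), with 0 members at an unadjusted p under 0.05 and 0 called by DESeq2. Comparing the combination with vehicle, edgeR called 0 members and 0% of all genes, with and without the block, with 1 member at an unadjusted p under 0.05 and 0 called by DESeq2. With the block 2868 of all genes had an unadjusted p under 0.05 in that comparison, and DESeq2 with the block called 227 genes, 0 of them members. Comparing it with T0070907, edgeR called 0 members beside 0.0370% of all genes, with 1 at an unadjusted p under 0.05 and 0 by DESeq2, and with the block 1 member beside 8.76%. For the interaction, which asks whether RGZ acted differently with and without T0070907, edgeR called 0 members and 0% of all genes, with 1 at an unadjusted p under 0.05 and 0 by DESeq2. With the block the interaction called 1 member beside 0.281% of all genes. The member called with the block in these last comparisons was again AQP3. Without the block 419 of all genes had an unadjusted p under 0.05 for T0070907 against vehicle, and DESeq2 called 21. These numbers were 1438 and 0 for the combination against vehicle, 2028 and 83 for it against T0070907, and 406 and 1 for the interaction. The median of the 6 members was -0.04 for T0070907 against vehicle, 0.11 for the combination against vehicle, -0.05 for the combination against T0070907 and -0.15 for the interaction, where all tested genes had medians from -0.01 to 0.01. These comparisons share libraries, the vehicle group entering 4 of them and the RGZ group 3, so their values are not independent of each other.

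**Figure D1:**
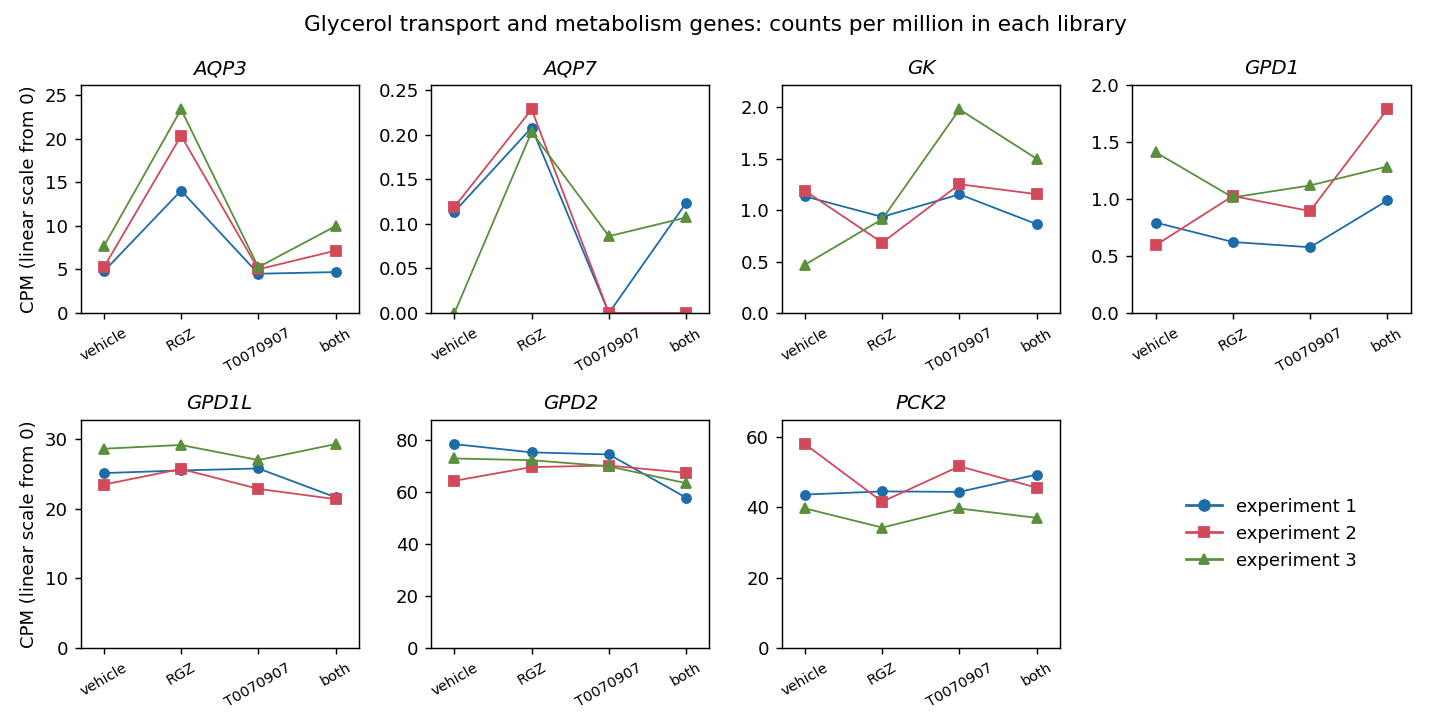
CPM of each of the 7 members (vertical axes, linear and starting at 0) in every library, with the 4 groups along the horizontal axis and the libraries of an experiment joined by a line. In AQP3 the 3 RGZ libraries lie at 14.0 to 23.3 CPM, above all other libraries of that gene, and the axis of AQP7 ends below the floor.

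AQP3 (Entrez 360) encodes an aquaglyceroporin of the plasma membrane that passes water and glycerol and is best known from the basal layer of the epidermis. Its counts in experiments 1, 2 and 3 were 42, 44 and 65 with vehicle. They were 135, 178 and 230 with RGZ. The T0070907 libraries held 39, 56 and 61 counts and those of the combination 38, 68 and 93. All RGZ libraries were higher than every other library, and the vehicle, T0070907 and combination libraries overlapped. On the CPM scale the vehicle libraries stood at 4.77, 5.24 and 7.65 and the RGZ libraries at 14.0, 20.3 and 23.3. Within experiments 1, 2 and 3 the level with RGZ was 2.94, 3.88 and 3.05 times that with vehicle, so the change was present at a similar size in each experiment. The log2 fold change was 1.71 (SE 0.27, 95% interval 1.11 to 2.30, edgeR adjusted p = 0.0109), which ranked AQP3 at 54 by p-value and 41 by fold change among the 13522 genes. DESeq2 gave an adjusted p of 4.10e-06, and the block in edgeR one of 2.03e-07 with a log2 fold change of 1.70 (SE 0.14). An exact permutation test over the 6 libraries gave p = 0.1 (two-sided), the smallest value that 3 against 3 libraries allow. The call was lost without vehicle replicate 1 (log2 fold change 1.58, adjusted p = 0.0731) and without vehicle replicate 2 (1.63, adjusted p = 0.0517), with adjusted p from 2.24e-15 to 0.0731 over all 12 alternatives.

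With T0070907 present the same gene stayed near its vehicle level. Within experiments 1, 2 and 3 the combination stood at 0.334, 0.352 and 0.427 times the level with RGZ alone, lower in 3 of 3 and without overlap of the groups. The log2 fold change was -1.40 (SE 0.27, 95% interval -1.98 to -0.81, edgeR adjusted p = 0.0270; adjusted p = 1.34e-06 with the block). This call was lost in a model of only the RGZ and combination libraries (adjusted p = 0.114), and without RGZ replicate 2 (0.0893), RGZ replicate 3 (0.112), combination replicate 1 (0.117) or combination replicate 2 (0.0866), within a range of adjusted p from 2.45e-11 to 0.117 over 12 alternatives. In the 5 fits that lost it the log2 fold change was -1.40 to -1.17. Against vehicle the combination gave a log2 fold change of 0.31 (SE 0.28, 95% interval -0.30 to 0.93, adjusted p = 0.720), an interval that leaves room for a rise of up to 0.93 on the log2 scale. Over fits that left out a library this log2 fold change ran from 0.0179 to 0.55. T0070907 alone gave -0.25 (SE 0.29, 95% interval -0.88 to 0.37, adjusted p = 1.00), with lower CPM in 3 of 3 experiments. The ratios to vehicle in experiments 1, 2 and 3 were 0.945, 0.957 and 0.687. With a library left out the log2 fold change for T0070907 alone ran over -0.38 to -0.0178.

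Against T0070907 alone, the combination had 1.04, 1.43 and 1.90 times the AQP3 level in experiments 1, 2 and 3, higher in 3 of 3 although the groups overlapped. The log2 fold change of 0.56 (SE 0.28) did not pass the test (edgeR adjusted p = 0.372), but with the block it did (0.57, SE 0.16, adjusted p = 0.0387). DESeq2 with the block gave an adjusted p of 0.0836, and adjusted p ran from 0.0387 to 0.728 over the alternatives that returned one. The log2 fold change was 0.27 without combination replicate 3 and 0.79 without combination replicate 1. The combination library of experiment 3 was also the highest of its group in 5 of 5 listed PPAR targets, with 5.68, 10.8 and 41.6 CPM in experiments 1, 2 and 3 for ANGPTL4, 4.69, 9.26 and 20.5 for PDK4 and 362, 454 and 737 for PLIN2. The part of this library in the AQP3 values was not tested. The interaction was -1.14 (SE 0.39, 95% interval -2.00 to -0.29, unadjusted p = 0.0128, edgeR adjusted p = 1.00) and became -1.13 (SE 0.22, adjusted p = 0.0411) with the block. With the block, then, the log2 change that RGZ made in AQP3 was smaller by that amount when T0070907 was present. DESeq2 with the block gave an adjusted p of 0.0249 for the interaction, and its adjusted p ran from 0.0249 to 1.00 over 17 alternatives.

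AQP7 (Entrez 364), the aquaglyceroporin through which fat cells release glycerol, had 0, 1 or 2 counts in every library. The counts in experiments 1, 2 and 3 were 1, 1 and 0 with vehicle and 2, 2 and 2 with RGZ. With T0070907 they were 0, 0 and 1, and with the combination 1, 0 and 1. All of them lie under the floor of 3 counts, so no fold change is given, and a difference between groups was not detectable at this depth. AQP7 has near-identical pseudogene copies, of which AQP7P1 held 132 and AQP7P3 21 counts over the 12 libraries, and how the counting divided shared reads is not given in the sources used here. The other aquaglyceroporins were not detected either: AQP9 had 0 counts, and AQP10 had 1 count over all 12 libraries. Of 9 further aquaporins, AQP1 and AQP11 were tested and neither was called for RGZ (log2 fold change -0.30 and -0.48, edgeR adjusted p = 0.902 and 0.513). In experiments 1, 2 and 3 AQP11 stood at 0.749, 0.576 and 0.839 times vehicle with RGZ, without overlap. With T0070907 alone it stood at 0.578, 0.677 and 0.895 times, also without overlap and not called. AQP1 was lower with RGZ and higher with T0070907 in 3 of 3 experiments, with overlap in both. AQP3 was therefore the aquaglyceroporin with counts above the floor in these libraries.

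AQP3 and AQP7 lie side by side on chromosome 9, with 0 protein-coding genes between them in RefSeq, yet AQP3 alone was expressed above the floor. Their promoters are shown because PPARγ binds DNA as a heterodimer with RXR at a repeat of AGGTCA with a spacer of 1 base (AGGTCANAGGTCA, known as DR1). RefSeq promoters (GRCh38.p14) were available for 6 of the 7 members, all but GPD1, and the 250 bases before the annotated start were searched on both strands. The capitals mark the stretch closest to DR1 in each window.
AQP3: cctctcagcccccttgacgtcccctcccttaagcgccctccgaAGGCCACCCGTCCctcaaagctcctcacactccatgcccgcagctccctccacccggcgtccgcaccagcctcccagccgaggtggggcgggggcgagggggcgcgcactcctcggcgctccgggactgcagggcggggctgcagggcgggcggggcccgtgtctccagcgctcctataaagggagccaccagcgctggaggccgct
AQP7: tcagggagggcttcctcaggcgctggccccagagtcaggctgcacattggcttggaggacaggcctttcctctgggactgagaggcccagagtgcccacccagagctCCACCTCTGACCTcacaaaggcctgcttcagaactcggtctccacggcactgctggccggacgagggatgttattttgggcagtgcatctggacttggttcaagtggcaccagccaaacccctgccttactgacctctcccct
The AQP3 window is chr9:33447594-33447843 and the AQP7 window chr9:33402569-33402818, both on the - strand. The closest stretch in AQP3 differs from DR1 at 4 of 12 fixed letters, and 69.1% of all 27305 promoters of this length hold a match at least as close. In AQP7 the closest stretch reads AGGTCAGAGGTGG on the opposite strand, begins 143 bases before the start and differs at 2 letters, a match held by 2.59% of promoters. The best matches of the other members had 3 differing letters in PCK2 (18.2% of promoters), 4 in GK and GPD2, and 5 in GPD1L (99.4%). The half-site AGGTCA, which DR1 contains, occurred 2 times in AQP7, 1 time in PCK2 and 0 times in AQP3, GK, GPD1L and GPD2, against 12.4% of all promoters with at least 1. A match describes the letters of these windows and nothing about binding.

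GK (Entrez 2710) encodes glycerol kinase, the enzyme that traps glycerol in the cell as glycerol 3-phosphate. It was barely expressed, with 10, 10 and 4 counts with vehicle and 9, 6 and 9 with RGZ. T0070907 libraries held 10, 14 and 23 counts and combination libraries 7, 11 and 14. The RGZ libraries, at 0.685 to 0.936 CPM, lay below the T0070907 libraries, at 1.16 to 1.98 CPM, a pair of groups for which no test was made. All other pairs of groups overlapped. RGZ against vehicle gave a log2 fold change of -0.14 with a 95% interval from -1.04 to 0.77 (edgeR adjusted p = 0.941), wide enough to hold a change by 1 log2 unit downward. Among the comparisons tested, the largest difference was that of T0070907 against vehicle, 0.66 (95% interval -0.18 to 1.49, adjusted p = 1.00). Within experiments 1, 2 and 3 the level with T0070907 was 1.02, 1.05 and 4.21 times that with vehicle. With a library left out this log2 fold change ran over 0.34 to 0.86. GK overlaps the antisense gene GK-AS1, and whether reads were counted by strand is not given in the sources used here. Among its relatives GK2 had 0 counts, the retrocopy GK3 had 2 over all libraries, and GK5 was expressed at 27.4 CPM in vehicle but was not called for RGZ (-0.13, adjusted p = 0.724).

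GPD1 (Entrez 2819) encodes the cytosolic, NADH-linked glycerol 3-phosphate dehydrogenase that is abundant in fat and muscle. It was as scarce as GK, with 7, 5 and 12 counts in the vehicle libraries and 6, 9 and 10 in the RGZ libraries. The T0070907 libraries held 5, 10 and 13 counts and the combination libraries 8, 17 and 12. Its groups overlapped in every comparison. The log2 fold change for RGZ was -0.07 (95% interval -0.999 to 0.85, edgeR adjusted p = 0.974). The combination had more CPM than RGZ alone and than T0070907 alone in 3 of 3 experiments, with log2 fold changes of 0.61 and 0.63 that did not pass the test (adjusted p = 0.553 and 0.487). Leaving out a library moved them over 0.36 to 0.78 and over 0.37 to 0.85.

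GPD1L (Entrez 23171), a close relative of GPD1 that carries the same type of reaction, was the better expressed cytosolic enzyme. Its counts ran from 197 to 243 in the vehicle group and from 225 to 287 in the RGZ group, from 223 to 313 under T0070907 and from 175 to 273 under the combination. The vehicle libraries stood at 25.7 ± 2.63 CPM and the RGZ libraries at 26.8 ± 2.05 CPM (mean ± SD, n = 3), which overlap. For RGZ the log2 fold change was 0.06 (SE 0.13, 95% interval -0.23 to 0.35, edgeR adjusted p = 0.919), an interval whose upper end is a rise of 0.35 on the log2 scale.

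GPD2 (Entrez 2820) encodes the FAD-linked dehydrogenase of the inner mitochondrial membrane, which completes the glycerol 3-phosphate shuttle. It stood at 78.2, 64.1 and 72.7 CPM in experiments 1, 2 and 3 with vehicle and at 75.1, 69.4 and 72.1 with RGZ. With T0070907 it stood at 74.3, 70.0 and 69.7 CPM, and with the combination at 57.7, 67.2 and 63.2. The combination libraries were below all RGZ and all T0070907 libraries but overlapped the vehicle libraries. The RGZ difference was the most narrowly bounded among the members, 0.01 on the log2 scale (SE 0.08, 95% interval -0.17 to 0.19, edgeR adjusted p = 0.984). The combination gave -0.19 against vehicle (unadjusted p = 0.0392, adjusted p = 0.453), -0.20 against RGZ (unadjusted p = 0.0313, adjusted p = 0.332) and -0.18 against T0070907 (unadjusted p = 0.0459, adjusted p = 0.323) in edgeR, none of which passed the test. All 3 rest on the same combination libraries, of which that of experiment 1 was lowest.

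PCK2 (Entrez 5106) encodes the mitochondrial phosphoenolpyruvate carboxykinase. Its level was 43.6, 57.9 and 39.7 CPM in experiments 1, 2 and 3 with vehicle and 44.5, 41.6 and 34.2 with RGZ. The T0070907 libraries stood at 44.4, 51.7 and 39.6 CPM and those of the combination at 49.3, 45.5 and 37.0. The groups overlapped throughout, and experiment 3 was the lowest in all 4 of them. RGZ was lower than vehicle in 2 of 3 experiments, and the log2 fold change of -0.23 (SE 0.16, 95% interval -0.58 to 0.12) did not pass the test (edgeR adjusted p = 0.665). In fits that left out a library it ran over -0.34 to -0.0562. Its cytosolic counterpart PCK1, the gluconeogenic enzyme of liver and a marker of fat cells, had 1 count over all 12 libraries.

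**Figure D2:**
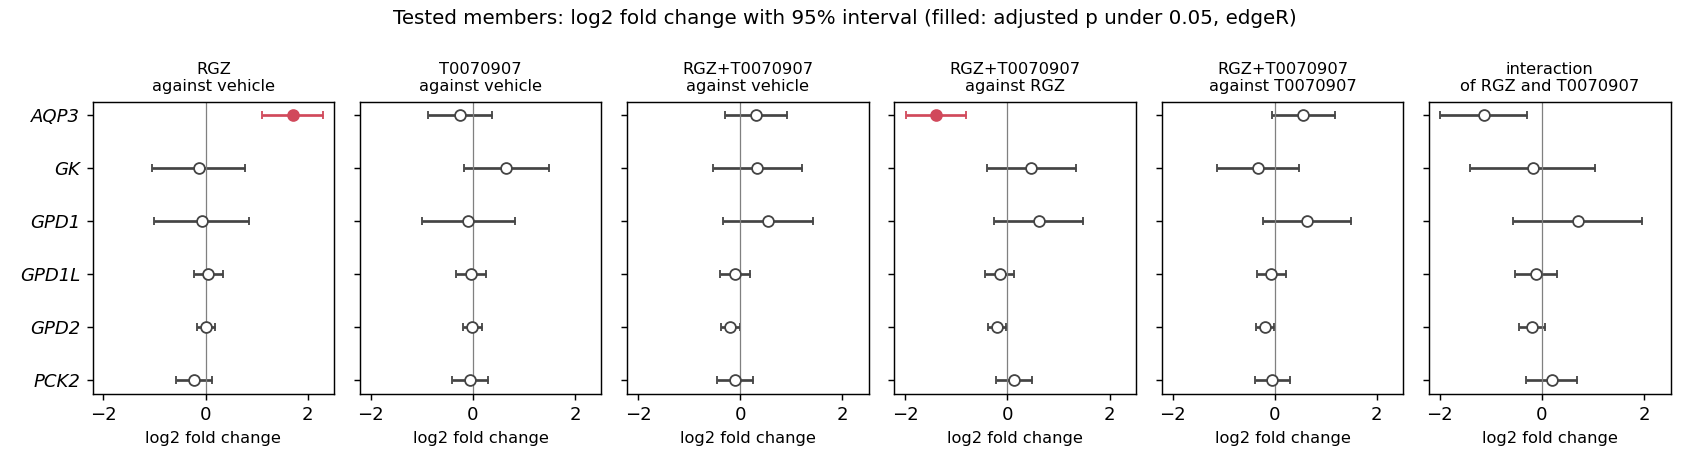
Log2 fold change (horizontal axes) of the 6 tested members in the 6 comparisons, with bars for the 95% interval of edgeR's test without the block. Only AQP3 is filled, at 1.71 for RGZ against vehicle and -1.40 for the combination against RGZ, and the bars of GK and GPD1 are several times wider than that of GPD2.

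Levels of different genes were compared per kilobase (kb) of the longest annotated transcript. In the vehicle group PCK2 stood at 18.8 ± 3.84 CPM per kb (mean ± SD, n = 3), followed by GPD2 at 11.9 ± 1.18, GPD1L at 6.33 ± 0.648 and AQP3 at 2.02 ± 0.531. GPD1 followed at 0.303 ± 0.138 and GK at 0.204 ± 0.0876, and these neighbours overlapped, as they did in every group. All other neighbours in the vehicle order were apart in every library. Of the 13305 tested genes with a known length, 71.7% were as low as PCK2 or lower, 23.0% as low as AQP3, 3.32% as low as GPD1 and 1.50% as low as GK. The order was the same with RGZ except that AQP3 moved to 6.61 ± 1.63 CPM per kb, level with GPD1L at 6.59 ± 0.506, and their libraries overlapped. In the T0070907 group GK stood before GPD1 at 0.320 against 0.280 CPM per kb, within their spread. By mean CPM per kb the kinase was thus the lowest detected member in 3 of the 4 groups, though it overlapped GPD1 in each. The mitochondrial enzymes PCK2 and GPD2 were the most abundant in all 4.

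**Figure D3:**
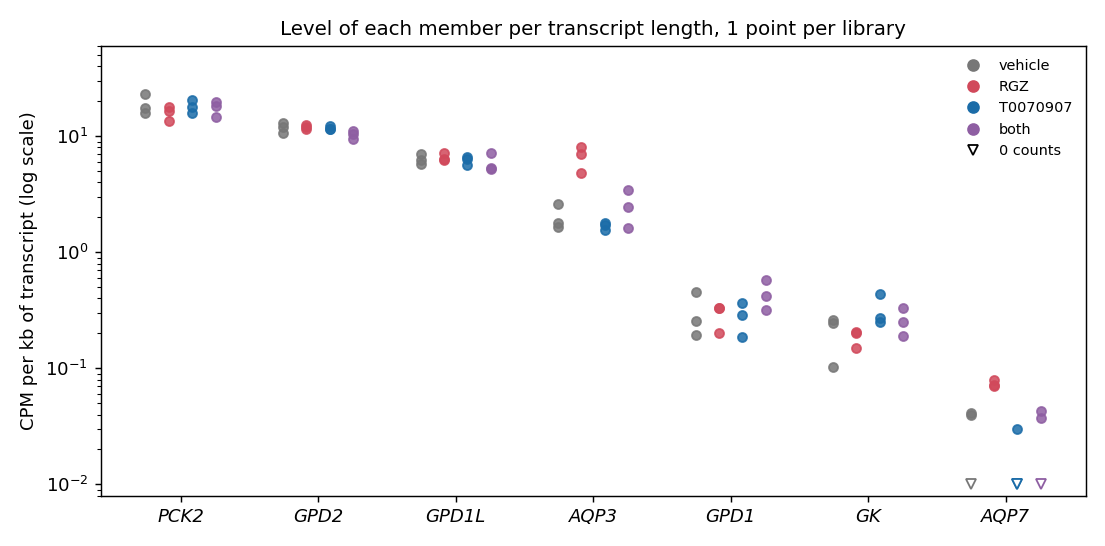
CPM per kb of transcript (vertical axis, log scale) of each member in each of the 12 libraries, with members ordered by their vehicle level and groups by colour. Open triangles at the bottom mark libraries with 0 counts, and the RGZ points of AQP3 reach the height of the GPD1L points.

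Other genes that make or use glycerol and its phosphate were taken from lists of pathway genes. Among 16 genes that acylate glycerol 3-phosphate and build glycerolipids from it, 15 were tested and for RGZ 1 was called higher and 0 lower, beside 1.24% of all genes (0.947% higher). This was AGPAT2, which acylates lysophosphatidic acid. It stood at 60.9, 71.2 and 62.2 CPM with vehicle and 96.0, 113 and 89.1 with RGZ in experiments 1, 2 and 3, without overlap (log2 fold change 0.62, SE 0.12, edgeR adjusted p = 0.0258). The call of AGPAT2 was lost without vehicle replicate 1 (adjusted p = 0.116) or 3 (0.125), without RGZ replicate 1 (0.0694) or 2 (0.0997) and in a model of only the groups compared (0.0711), with adjusted p as low as 3.30e-06 elsewhere. In these 5 fits its log2 fold change was 0.52 to 0.64. With the block GPAT3, which acylates glycerol 3-phosphate itself, was also called higher (0.47, adjusted p = 2.91e-05, against 0.232 without the block), in a fit that called 9.30% of all genes. The median log2 fold change of this list was 0.03, against -0.01 over all tested genes.

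A further list held 5 genes for hydrolysis of glycerophosphodiesters, a reaction that can release glycerol 3-phosphate, though not every listed enzyme need do so. Of these 5, 1 was called higher for RGZ and 0 lower, beside 1.24% of all genes (0.947% higher), with a list median of -0.05. GDE1, a glycerophosphodiester phosphodiesterase, stood at 68.9, 94.1 and 69.8 CPM with vehicle in experiments 1, 2 and 3. Its RGZ libraries stood at 160, 203 and 206 CPM, its T0070907 libraries at 51.4, 65.7 and 51.6 and its combination libraries at 68.1, 95.6 and 98.8. As in AQP3, all RGZ libraries of GDE1 were above the libraries of the other groups, and in GDE1 the T0070907 libraries were also below all vehicle libraries. The log2 fold change of GDE1 was 1.29 for RGZ (SE 0.17, edgeR adjusted p = 0.00351) and -1.11 for the combination against RGZ (SE 0.17, adjusted p = 0.00892), and both calls held under all 12 alternatives of each. Between T0070907 and vehicle GDE1 gave -0.46 (adjusted p = 1.00), called with the block (-0.47, adjusted p = 0.0211). GDE1 overlaps antisense transcripts, so its counts may include theirs if strand was not used.

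Among 7 genes of lipolysis, which frees glycerol from triglycerides, 6 were tested and edgeR called 0 for RGZ, with 2 at an unadjusted p under 0.05 and 0 by DESeq2. With the block 2 were called higher, MGLL (0.45, adjusted p = 0.0178) and ABHD6 (0.55, adjusted p = 0.00235), both monoacylglycerol lipases, which carry out the step that yields free glycerol. That fit called 9.30% of all genes (4.95% higher). Within experiments 1, 2 and 3 MGLL was 1.49, 0.984 and 1.74 times its vehicle level, higher in 2 of 3 and with overlap of the groups, while ABHD6 was higher in 3 of 3. The list had a median of 0.23. The hormone-sensitive lipase LIPE had 37, 95 and 29 counts with RGZ in experiments 1, 2 and 3 against 26, 35 and 29 with vehicle, so its higher mean came from the library of experiment 2, and it was not called (0.73, adjusted p = 0.574). Of 6 genes at the triose phosphate steps edgeR called 0 for RGZ, with 1 at an unadjusted p under 0.05 and 0 by DESeq2. The block, again with 9.30% of all genes called, added the pyruvate carboxylase gene PC (0.35, adjusted p = 0.00678), which supplies the oxaloacetate that PCK2 uses, and the list median was 0.10. Of 7 genes of the malate-aspartate shuttle, the other route for cytosolic NADH beside GPD1 and GPD2, edgeR called 0 for RGZ with and without the block, with 0 at an unadjusted p under 0.05 (2 with the block), 0 by DESeq2 and a median of 0.02.

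PCK2 is known as a target of the amino acid response factor ATF4, and 14 genes of that response were tested beside it. For RGZ edgeR called 0 of them, with 6 at an unadjusted p under 0.05, as had 1421 of all 13522 genes, and 0 by DESeq2, and the median was -0.13. The block called 4 of the 14, beside 9.30% of all genes. The 1 called higher was the stress-induced factor ATF3 (0.50, adjusted p = 0.0152). The serine synthesis genes PSAT1 (-0.24, adjusted p = 0.00366) and PHGDH (-0.21, adjusted p = 0.0269) and the cystine transporter gene SLC7A11 (-0.37, adjusted p = 0.0117) were the 3 called lower with the block. In that fit PCK2 gave -0.22 with an unadjusted p of 0.0248, which did not pass the adjustment (adjusted p = 0.152).

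These lists of glycerol pathways, with AQP1, AQP11 and GK5 counted in, held 42 tested genes. For the combination against RGZ 1 of them was called, GDE1, beside 1.24% of all genes. With the block 7 were called, all of them lower, beside 11.4% of all genes (5.88% lower). The 6 besides GDE1 were PC, MGLL, ABHD6, GPAT3, AGPAT2 and LPIN2, a phosphatidate phosphatase (LPIN2 -0.40, edgeR adjusted p = 0.00268). Of 5 known PPAR targets, ANGPTL4, PLIN2, CPT1A, PDK4 and FABP4, 5 were called higher for RGZ, beside 0.947% of all genes. For the combination against RGZ 5 were called lower, beside 0.924%. AQP3 went in the direction of that list in both comparisons, which share the RGZ libraries and so are not independent. With T0070907 alone ANGPTL4, PDK4, PLIN2 and CPT1A stood at 0.111, 0.290, 0.457 and 0.582 times vehicle by group means, without overlap. FABP4 stood at 1.10 times and AQP3 at 0.837 times vehicle there, both with overlap. In that comparison edgeR called 0 of the 5 targets, or 3 lower with the block, beside 0.910% of all genes. Of the calls of PPAR targets, that of CPT1A for RGZ was lost without vehicle replicate 1 (adjusted p = 0.0523) and that of PDK4 for the combination against RGZ in a model of only the groups compared (0.0668). The receptor gene PPARG itself stood at 82.2 ± 6.79 CPM with vehicle and 72.1 ± 4.77 with RGZ (mean ± SD, n = 3) and was not called (-0.19, adjusted p = 0.573). Of the 3 PPAR receptor genes edgeR called 0 for RGZ, with 1 at an unadjusted p under 0.05 and 0 by DESeq2. PPARA stood at 0.774, 0.673 and 0.792 times vehicle with RGZ in experiments 1, 2 and 3, without overlap. Its combination libraries stood at 1.35, 1.45 and 1.24 times RGZ alone, also without overlap. For that comparison edgeR called 0 of the 3 receptor genes, or 1 higher with the block, beside 11.4% of all genes (5.55% higher).

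**Figure D4:**
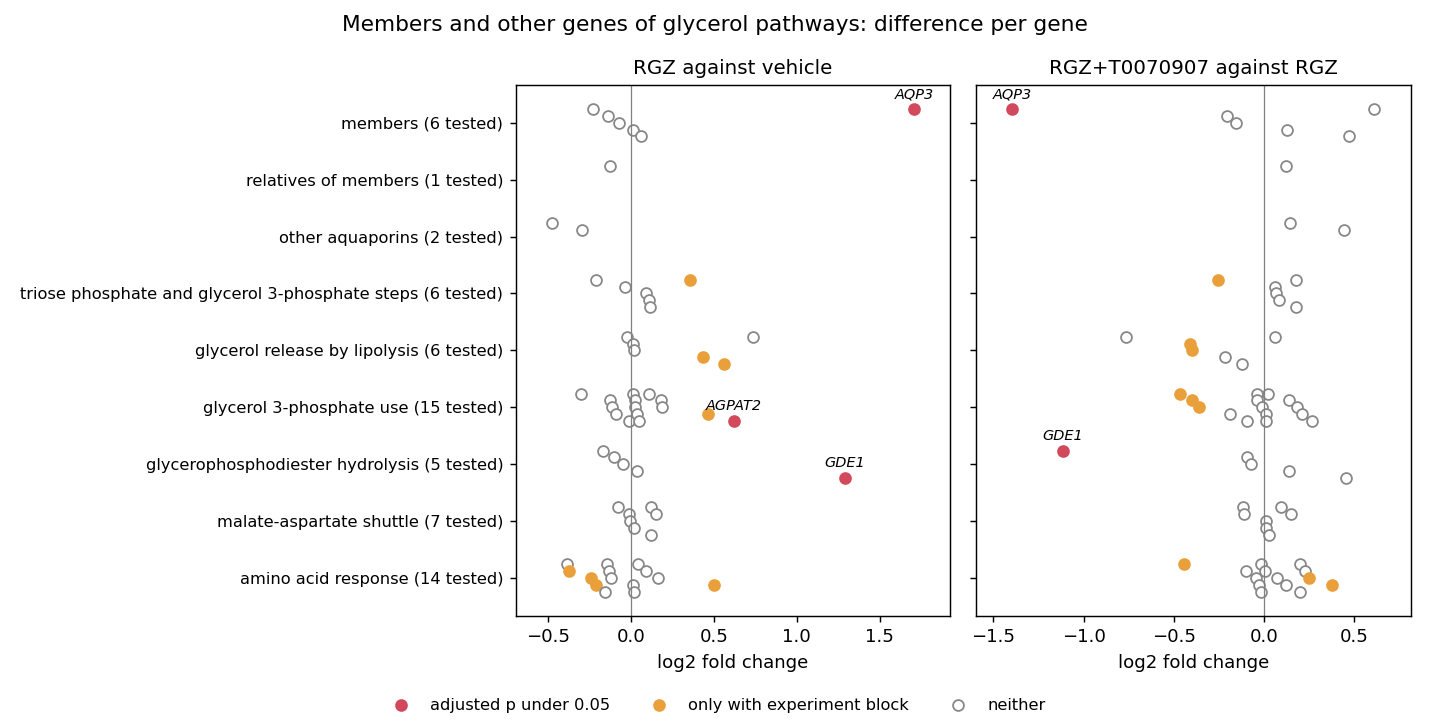
Log2 fold change (horizontal axes) of every tested gene in the lists of glycerol pathways and of the amino acid response, for RGZ against vehicle and for the combination against RGZ, with 1 point per gene. Names mark genes called by edgeR without the block: AQP3, AGPAT2 and GDE1 on the left at 1.71, 0.62 and 1.29, and AQP3 and GDE1 on the right at -1.40 and -1.11.

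The 3 genes whose log2 CPM, centred within each experiment, followed AQP3 most closely over the 12 libraries were C11orf86 (Pearson r = 0.998), AREG (r = 0.989) and ADGRG1 (r = 0.988). AREG encodes the EGF receptor ligand amphiregulin and ADGRG1 an adhesion G protein-coupled receptor. Their mean levels in vehicle, RGZ, T0070907 and combination libraries were 0.586, 12.4, 0.158 and 1.08 CPM for AREG, 140, 201, 131 and 150 for ADGRG1 and 0.271, 4.75, 0.107 and 0.508 for C11orf86, so the likeness is in shape and not in size. C11orf86 with vehicle and both C11orf86 and AREG with T0070907 had means under the floor, where the prior count weighs heavily in the log2 CPM. The other tested members had r from -0.72 (PCK2) to 0.54 (GPD1L) with AQP3 on the same scale. These values describe 12 libraries that share 4 treatments and 3 experiments.

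Some markers of other cell types differed between RGZ and vehicle when the block was used. The leukocyte list summed to 47.8, 80.2 and 47.9 CPM with vehicle in experiments 1, 2 and 3 and to 59.4, 104 and 69.5 with RGZ, and 1 of its 3 tested genes was called higher with the block, the lysosomal gene CD68, its most abundant gene. The defining leukocyte genes PTPRC and CD3E had at most 2 and 1 counts in any library. The fibroblast list summed to 15.8, 35.8 and 15.2 CPM with vehicle and 13.1, 22.1 and 11.4 with RGZ, led by COL1A1. The endothelial list summed to 5.68, 5.59 and 8.35 CPM with vehicle and 2.91, 3.54 and 5.79 with RGZ, led by KDR. The keratinocyte list, of interest because AQP3 is a keratinocyte gene, summed to 87.9, 93.8 and 114 CPM with vehicle and 85.9, 92.4 and 99.1 with RGZ, led by KRT10, with KRT1 at 0 and DSG3 at no more than 1 count. The melanocyte list summed to 391, 296 and 516 CPM with vehicle and 365, 248 and 442 with RGZ, led by SOX10. With the block COL1A1 was called lower among 4 tested fibroblast genes, KDR among 2 endothelial, KRT14 among 3 keratinocyte and MITF and S100B among 5 melanocyte genes. That fit called 9.30% of all genes (4.35% lower). Called or not, 1 tested gene was higher and 3 lower in the fibroblast list, 0 and 2 in the endothelial and 1 and 2 in the keratinocyte list. These numbers were 1 and 4 in the melanocyte, 2 and 1 in the leukocyte and 1 and 1 in the adipocyte list. The lower genes included CD14 of the leukocyte list, at 0.583, 0.480 and 1.04 times vehicle in experiments 1, 2 and 3. CFD of the adipocyte list, also lower, stood at 1.18, 0.720 and 0.863 times. The higher genes included PAX3, at 1.16, 1.17 and 1.10 times its vehicle level in experiments 1, 2 and 3, and KRT10, at 1.08, 1.08 and 1.02 times. The adipocyte list summed to 4.43, 7.62 and 5.06 CPM with vehicle and 5.20, 16.4 and 5.28 with RGZ, led by LIPE. The part of these differences in the rise of AQP3 was not tested.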

How the data were processed

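RNA of A375 cells had been made into TruSeq libraries and sequenced on a HiSeq 2000. The file the authors deposited holds unnormalized read counts for each gene in 12 libraries; the submitters' processing notes name the build hg19, while the aligner, the annotation and the use of strand are not given in the sources used here. The table held 0 columns of other samples. RefSeq gave symbols for 23538 of 23705 gene numbers. The analysis used R 4.3.3 with edgeR 4.0.16 and DESeq2 1.42.0: TMM scaling, filterByExpr, a quasi-likelihood model of 4 groups over all 12 libraries, 6 contrasts and Benjamini-Hochberg adjustment over 13522 genes. The SE of a log2 fold change is approximate, its size divided by the square root of F. Log2 CPM used a prior count of 2.

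For its RNA-seq analysis the study points to earlier work that was not at hand, and it names no model itself, so the block for the experiment was an alternative. The series record gives 3 independent experiments, and the number 1 to 3 in each label was taken as the experiment, which pairs the libraries. Deviations from group means correlated at 0.554 on average within an experiment (0.0793 to 0.758, 17 of 18 pairs over 0.1). No 2 libraries of a group agreed so closely that they could be the same library. Transcript lengths came from GENCODE.

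The members and lists were chosen with earlier results of these data known. Named were all 7 members, at most 6 called genes of each further list with any needed to show a floor, and the 3 genes most like AQP3. Outside this rule, AQP1, AQP11, GK5, PPARG, AQP7P1, AQP7P3 and the LIPE and PPARA values were singled out after they were seen, and marker genes come from marker lists. Alternatives were the block, DESeq2 with and without it, RLE scaling, no filter, only the groups compared, and leaving out each library.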

Additional observations from a re-analysis of the deposited data

Results flagged for a closer look

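Among the members and the listed genes, the effect of RGZ differed with and without T0070907 in 3 when the experiment was a block in edgeR's model, a fit that called 38 of all 13522 genes for this difference. In AQP3 the difference of the log2 fold changes was -1.13 (SE 0.22, adjusted p = 0.0411). In the phosphodiesterase gene GDE1 it was -0.65 (adjusted p = 0.0447), and in the lipid droplet gene PLIN2 it was -1.10 (adjusted p = 0.0301). Without the block and with all libraries none of these 3 differences passed the test, with adjusted p = 1.00 for each, and 0 of all 13522 genes were called by edgeR, with 406 at an unadjusted p under 0.05 and 1 called by DESeq2, the PPAR target FABP4 (adjusted p = 1.18e-05, and 0.00158 in DESeq2 with the block). Leaving out the combination library of experiment 3, still without the block, gave an adjusted p of 0.0141 in PLIN2. Whether a library stands apart from its group was not tested.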

How the results depend on the processing

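The alternatives were followed for 81 log2 fold changes. These were of the tested members and of genes in the glycerol pathway, amino acid response and PPAR target lists that edgeR called with or without the block. Alternatives that kept all libraries gave 472 values. Of these, 394 kept their direction and their side of the threshold, 74 newly passed it, 4 no longer passed it and 0 turned in direction. Listed genes called only with the block entered through that fit, itself 1 of the alternatives. Part of the 74 was therefore fixed by the choice of genes. The replicate block, which takes the pairing by experiment into the model, gave 1 called member for the combination against T0070907 and 1 for the interaction, where the model without it gave 0, and DESeq2 with the replicate block also gave 1 for the interaction; each time it was AQP3, and the block changed no other call of a member. A model of only the groups compared gave 0 called members for the combination against RGZ in place of 1. Leaving out a library gave 0 to 1 called members for RGZ against vehicle and 0 to 1 for the combination against RGZ, as AQP3 crossed the threshold; fewer libraries remain in such a fit. Of 534 values from leaving out a library, 489 kept direction and side, 14 no longer passed, 5 newly passed and 26 turned in direction. The turns were all in members that were not called. For RGZ against vehicle the log2 fold change ran over -0.45 to 0.0706 in GK, -0.31 to 0.34 in GPD1, -0.00693 to 0.14 in GPD1L and -0.0649 to 0.0775 in GPD2. For T0070907 against vehicle it ran over -0.32 to 0.33 in GPD1, -0.0925 to 0.0535 in GPD1L, -0.0827 to 0.0593 in GPD2 and -0.17 to 0.12 in PCK2. For the combination against vehicle it ran over -0.21 to 0.0779 in PCK2, and against T0070907 over -0.23 to 0.0176 in GPD1L and -0.13 to 0.0676 in PCK2. The interaction of GK ran over -0.40 to 0.13. The cause of these turns was not tested. Depth limits GK and GPD1, with no more than 23 and 17 counts in a library, and AQP7, with no more than 2.

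Of the 42 tested genes in the further lists of glycerol pathways (AQP1, AQP11 and GK5 counted in), those called for RGZ numbered 2. They numbered 6 with the block and with DESeq2 and the block, and 1 in a model of only the groups compared. For the combination against RGZ they numbered 1, against 7 with the block, 2 with DESeq2 and 5 with DESeq2 and the block. For the combination against T0070907 they numbered 0, against 4 with the block, 2 with DESeq2 and 4 with DESeq2 and the block. The share of all genes that edgeR called rose with the block too, from 1.24% to 9.30%, from 1.24% to 11.4% and from 0.0370% to 8.76% in these 3 comparisons.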
